A study of Mus musculus with 10 samples.

Results

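Imprinted genes are transcribed mainly from the copy inherited from 1 parent. Among the protein-coding transcripts of mouse sperm and testes, 10 such genes were followed by symbol: Igf2, Dlk1, Mest, Peg3, Peg10, Plagl1 and Snrpn, which are paternally expressed, and Igf2r, Grb10 and Cdkn1c, which are maternally expressed in most mouse tissues. All transcripts with a RefSeq NM_ identifier that carried one of these symbols were taken, and their values were summed by gene. This gave 10 genes with 14 transcripts, out of 16082 genes with NM_ transcripts and 69572 features in all, since the same libraries also hold long non-coding RNAs and predicted transcripts.

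The parental mark of an imprinted gene is DNA methylation at a control region, laid down in the egg or in the male germ line and kept through the demethylation that follows fertilization, with the help of zinc finger proteins such as ZFP57. In the male germ line the old marks are erased early and a paternal pattern is set before meiosis. The genes are known for their part in growth: the ligand IGF2, its clearance receptor IGF2R, the adaptor GRB10 and the cell cycle inhibitor CDKN1C act on growth factor signalling or cell division, and several of the genes are most active in the embryo and placenta. RNA-seq of this kind does not tell the parental copies apart, so that the values below are levels of both together.

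The mice were C57BL/6 (C57BL/6J in the study's methods), 3 to 5 months old by the labels, and received a single intraperitoneal injection of saline (control) or of CdCl2 at 3 mg/kg (cadmium), with 50 mice per arm, before they were killed on day 35. The samples were 4 pools of control sperm, 2 of cadmium sperm, 2 control testes and 2 cadmium testes. By the study's methods, which describe the controls, sperm came from the vas deferens and cauda epididymis of several mice per pool after lysis of somatic cells, with separate mice in each pool, and the testes tissue was taken from the same mice and arranged into 2 replicates. Control sperm 1 was left out of the tests, as the study did, and its values are given beside the others. The main tests treated sperm and testes samples as independent, although control sperm and control testes shared mice. Which of these samples shared them is not given. For the cadmium samples the sources used here do not say whether replicates came from separate mice, so p-values measure the spread between these samples, which may in part be technical.

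Depth set what could be seen. The expected count, the authors' estimate of the fragments from a transcript, summed to 424606, 1058017, 366455 and 508252 in control sperm 1 to 4, to 1155491 and 1254477 in cadmium sperm, and to between 2606086 and 2866856 in the testes. A count of 0 allowed up to 3 counts, which is 0.000819% of the shallowest sample and 0.000105% of the deepest. Such limits cover counting error only. The Poisson intervals below cover the counting error of the sperm counts alone and take the testes share as exact. Between 9.14% and 13.6% of the counts fell on NM_ transcripts, and 1552 to 12250 NM_ genes were listed per sample. Of 7 markers of spermatids and sperm, 2 to 5 were above 0 in a sperm sample and 6 to 7 in a testes sample. The protamine Prm2 was listed at 147 to 438 FPKM in all 10 samples. Prm1, Tnp1 and Odf1 were called lower in control sperm than in control testes. Odf1 was at 0 in all 6 sperm samples and in both cadmium testes, and was listed only in control testes, at 2.12 and 2.38 FPKM. Of 7 Leydig cell markers in the tables, 0 to 2 were above 0 in a sperm sample and 4 to 7 in a testes sample, and of 10 Sertoli cell markers 0 to 4 and 6 to 8. Control sperm 3 stood apart among the sperm samples in its Leydig list, in which Star alone was listed, at 27.5 FPKM.

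The 10 genes split into a single gene that was abundant in sperm, a single gene listed in every sample at moderate and uneven levels, a gene seen almost only in testes, and 7 genes close to the limit of detection in most samples. Of the 10, control sperm 1 to 4 listed 2, 5, 3 and 2 genes, control testes 8 and 8, cadmium sperm 7 and 8, and cadmium testes 8 and 9. The 3 shallowest samples, control sperm 1, 3 and 4, listed the fewest members, and the part of depth in these counts was not tested. FPKM below is the authors' value per length of transcript and size of library, summed over the transcripts of a gene. Levels can thus be set beside each other between genes. The study reports that sperm RNA was enriched in smaller sizes and lacked the ribosomal peaks seen in testes RNA. RNA integrity thus differed along with tissue, and its part in the differences between sperm and testes was not tested.

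**Figure D1:**
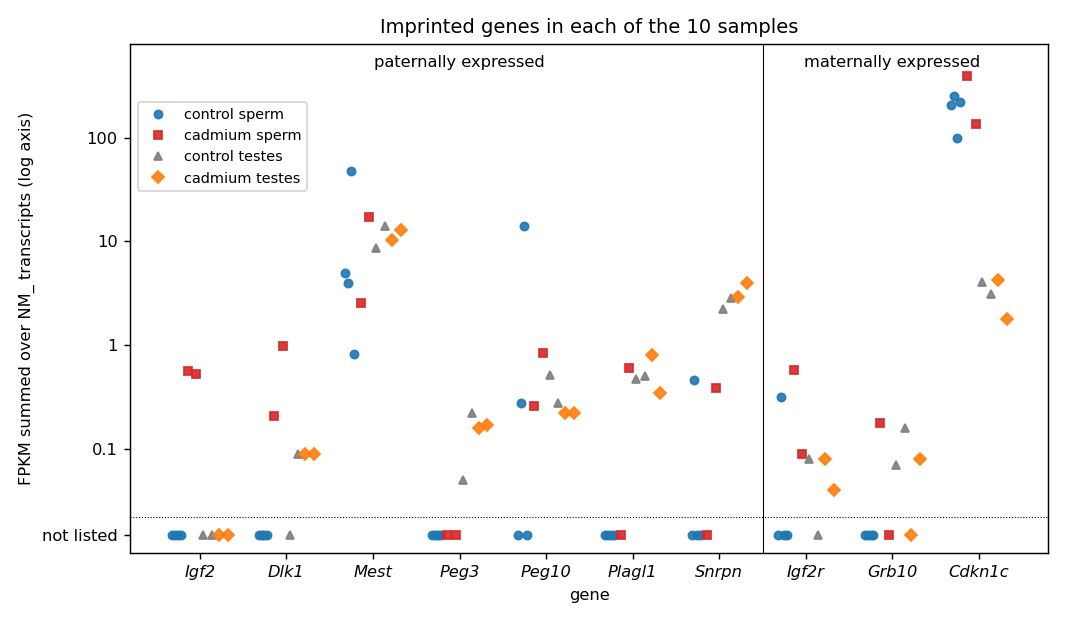
FPKM (log axis) of each of the 10 genes in each of the 10 samples, with samples that do not list a gene set below the dotted line. Cdkn1c is between 98.4 and 390 FPKM in the 6 sperm samples and between 1.79 and 4.25 FPKM in the 4 testes samples, while Mest is scattered from 0.83 to 47.7 FPKM in sperm.

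Cdkn1c (chr7:143458339-143461059, build GRCm38.p6) encodes p57KIP2, an inhibitor of cyclin-dependent kinases that holds cells out of the cell cycle. It was listed at 207, 255, 98.4 and 221 FPKM in control sperm 1 to 4 and at 390 and 134 FPKM in cadmium sperm 1 and 2. In control testes it was listed at 4.03 and 3.09 FPKM, and in cadmium testes at 4.25 and 1.79 FPKM. All 6 sperm samples were thus above all 4 testes samples, with the lowest sperm value in control sperm 3 and the highest in cadmium sperm 1. By FPKM among NM_ genes, Cdkn1c ranked between 15 and 39 in the sperm samples and between 1615 and 3062 in the testes samples. Its mean was 191 ± 82.2 FPKM (SD, n = 3) in control sperm 2 to 4 and 262 ± 181 FPKM (SD, n = 2) in cadmium sperm, against 3.56 ± 0.66 FPKM (SD, n = 2) in control testes and 3.02 ± 1.74 FPKM (SD, n = 2) in cadmium testes. The counts behind these levels were 67 to 857 per sperm sample and 9 to 23 per testes sample.

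The 2 listed Cdkn1c transcripts, NM_009876 of 1904 bases and NM_001161624 of 1942 bases, share most of their sequence, and the division of counts between them was not stable. NM_001161624 took 0% of the Cdkn1c counts in control sperm 1, 3 and 4 and 29.7% in control sperm 2. In cadmium sperm it took 66.3% of 857 counts in replicate 1 and 15.9% of 316 counts in replicate 2. In testes it took 100% in replicate 1 and 0% in replicate 2 of both the control and the cadmium group. Replicates of a group therefore differed as much as any groups did, and only the sum over both transcripts is used here.

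**Figure D2:**
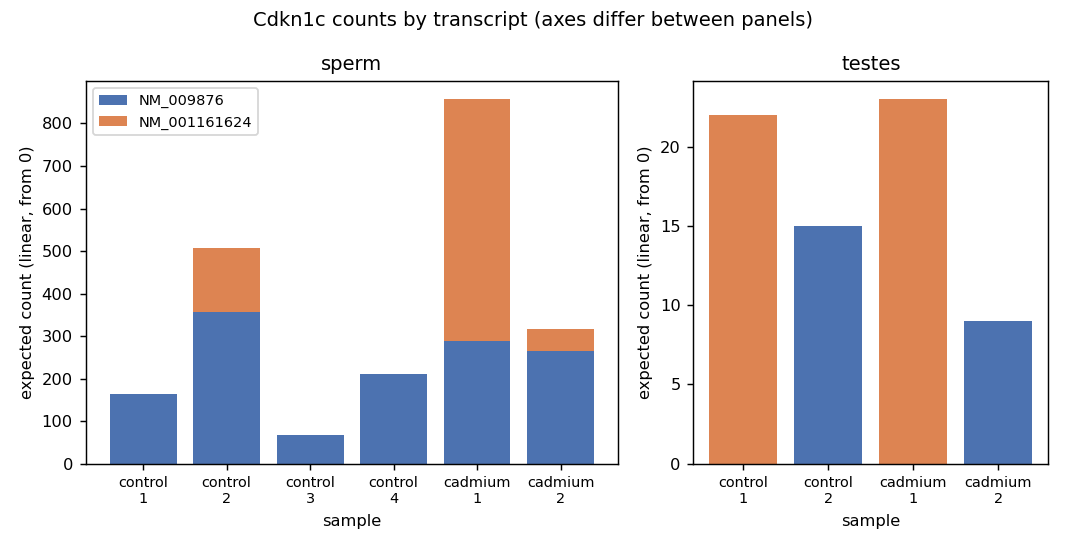
Expected counts of the 2 Cdkn1c transcripts, stacked, in each sperm sample (left) and each testes sample (right), on linear axes from 0 that differ between panels. The sums reach 857 in sperm and 23 in testes, and in testes all counts fall on NM_001161624 in replicate 1 and on NM_009876 in replicate 2.

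Mest (chr6:30733506-30748466) encodes a membrane protein of the endoplasmic reticulum with a hydrolase fold and is expressed from the paternal copy. It was listed in all 10 samples. In control sperm 1 to 4 it stood at 5.01, 4.0, 47.7 and 0.83 FPKM, and in cadmium sperm at 2.56 and 17.2 FPKM. Control testes gave 8.61 and 14.1 FPKM and cadmium testes 10.3 and 12.9 FPKM. The testes samples lay close together, whereas the sperm samples lay on both sides of them, with control sperm 3 and cadmium sperm 2 above every testes sample and the other 4 sperm samples below every testes sample. The means were 17.5 ± 26.2 FPKM (SD, n = 3) in control sperm 2 to 4 and 2.42 FPKM without replicate 3, 9.90 ± 10.4 FPKM (SD, n = 2) in cadmium sperm, 11.3 ± 3.86 FPKM (SD, n = 2) in control testes and 11.6 ± 1.82 FPKM (SD, n = 2) in cadmium testes. The high sperm values rested on 41 counts in control sperm 3 and 51 counts in cadmium sperm 2, and the low ones on 1 to 10 counts.

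The sperm samples high in Mest were also the ones highest in the summed level of the Leydig marker list. As CPM of the counts on NM_ transcripts, Mest and the Leydig list stood at 1223 and 1194 in control sperm 3 and at 388 and 236 in cadmium sperm 2. In the other 4 sperm samples Mest was between 18.4 and 118 and the Leydig list between 0 and 170. The steroidogenic gene Star was the single Leydig marker above 0 in control sperm 3, in which Cyp11a1, Cyp17a1, Hsd3b1, Hsd3b6, Insl3 and Hsd17b3 were all at 0, and the 10 Sertoli markers were at 0 as well. In cadmium sperm 2, Star and Hsd3b1 were above 0 and the Sertoli list reached 182 CPM, the highest of the sperm samples, from 4 of 10 markers. In testes the Leydig list stood at 385 to 580 and the Sertoli list at 369 to 434 CPM. The part of these cells in the Mest values was not tested.

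**Figure D3:**
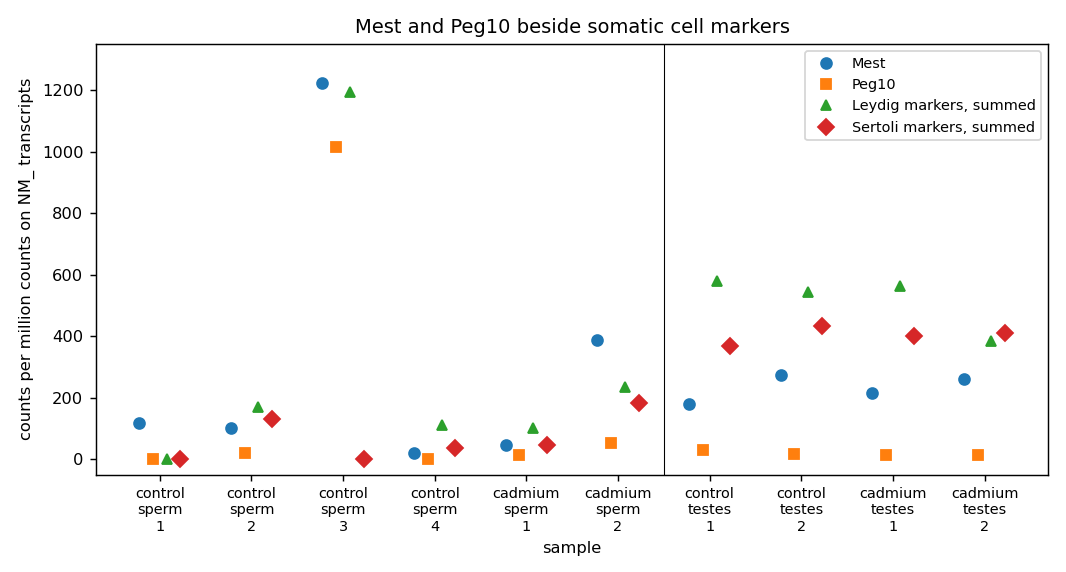
Counts of Mest and Peg10 and summed counts of the Leydig and Sertoli marker lists, as CPM of the counts on NM_ transcripts, in each of the 10 samples. Mest, Peg10 and the Leydig list are all at their highest in control sperm 3, where the Sertoli list is at 0.

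RefSeq places the start of Mest at a pair of sites, leaving aside a near copy of the downstream one, and the promoter windows from 250 bases before to 50 bases after each start are shown because Mest was the most widely listed of the paternally expressed genes and because its 2 starts differ in CpG content, the substrate of the parental methylation mark. CG dinucleotides are in capitals, and build and strand are given with each name.
Mest upstream start, GRCm38.p6 chr6:30733256-30733555, plus strand: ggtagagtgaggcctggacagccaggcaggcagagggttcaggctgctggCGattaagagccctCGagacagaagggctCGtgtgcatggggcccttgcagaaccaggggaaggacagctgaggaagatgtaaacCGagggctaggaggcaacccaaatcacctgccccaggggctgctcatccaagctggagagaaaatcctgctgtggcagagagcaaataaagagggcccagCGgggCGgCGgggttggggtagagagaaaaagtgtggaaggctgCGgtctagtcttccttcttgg
Mest downstream start, GRCm38.p6 chr6:30737800-30738099, plus strand: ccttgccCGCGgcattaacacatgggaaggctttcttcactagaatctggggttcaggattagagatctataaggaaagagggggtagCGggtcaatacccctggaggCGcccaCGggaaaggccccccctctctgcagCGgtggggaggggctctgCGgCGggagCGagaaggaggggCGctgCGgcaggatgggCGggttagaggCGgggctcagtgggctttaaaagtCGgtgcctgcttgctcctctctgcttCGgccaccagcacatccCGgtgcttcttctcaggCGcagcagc
The upstream window holds 8 CG dinucleotides and the downstream window 17, beside a median of 7 over 32851 such windows of the mouse genome. The 6-letter motif TGCCGC, to which ZFP57 binds when it is methylated, was searched on both strands and occurs 2 times in the downstream window and 0 times in the upstream one, and it occurs in 11.6% of all windows. The tables list 1 Mest transcript of 2387 bases, so that the use of the 2 starts cannot be told apart.

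Snrpn (chr7:59982495-60450177) encodes SmN, a core protein of the splicing machinery that is most abundant in brain, and it is expressed from the paternal copy. It was at 2.23 and 2.83 FPKM in control testes and at 2.93 and 3.99 FPKM in cadmium testes. Among the sperm samples it was at 0.46 FPKM in control sperm 2 and 0.39 FPKM in cadmium sperm 2, a single count in each, and was listed at 0 in control sperm 1, 3 and 4 and in cadmium sperm 1. The FPKM values as listed did not overlap between the tissues, but the 0 of control sperm 1, 3 and 4 allowed levels as high as those in testes. In these samples 1 count of a 2 kb transcript was 1.20, 1.40 and 1.00 FPKM. At the testes share they would have given 2.59, 2.23 and 3.10 counts. With the mean share of the 4 testes samples, the depth of the 6 sperm samples would have given 29.1 Snrpn counts, and 2 were found. This is a ratio of 0.069, with an exact 95% Poisson interval of the sperm count from 0.0083 to 0.249. The testes share, taken as exact, rested on 67 counts. The gene Snurf (chr7:59982495-60005199) lies within the span of Snrpn, with which it shares a transcript, and reads of the pair cannot be told apart. Snrpn also has several starts, and the window at the start it shares with Snurf is shown because it is the only one of its 4 windows with the ZFP57 motif, again with CG in capitals.
Snrpn downstream start, GRCm38.p6 chr7:60005150-60005449, minus strand: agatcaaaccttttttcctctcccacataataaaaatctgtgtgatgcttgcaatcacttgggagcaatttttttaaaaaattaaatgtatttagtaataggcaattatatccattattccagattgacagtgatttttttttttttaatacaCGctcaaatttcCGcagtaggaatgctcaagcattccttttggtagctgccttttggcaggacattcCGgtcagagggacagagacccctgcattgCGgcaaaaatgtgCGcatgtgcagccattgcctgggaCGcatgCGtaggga
This window holds 7 CG dinucleotides and 1 TGCCGC motif, and the other 3 windows hold 2, 3 and 4 CG dinucleotides. Of the 17 windows found for 8 of the genes, 6 held the motif, in Mest, Snrpn, Igf2, Plagl1 and Grb10. These 6 include both near copies of the downstream Mest window. Over all 17 windows the CG counts ran from 2 in the upstream windows of Snrpn and Igf2 to 45 in a window of Grb10. In the 6 with the motif they ran from 7 in Snrpn to 45 in Grb10. The motif matches describe the letters of the windows alone. Cdkn1c and Peg10 had no entry.

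Peg10 (chr6:4747306-4760517) derives from a retrotransposon gag-pol gene and is needed for the placenta. In control sperm 1 to 4 it stood at 0, 0.28, 14.0 and 0 FPKM, and in cadmium sperm at 0.26 and 0.84 FPKM. It was at 0.52 and 0.28 FPKM in control testes and at 0.22 FPKM in both cadmium testes. Control sperm 3, with 34 counts, was alone above 1 FPKM, and the other samples held 0 to 10 counts. It was the same library in which Mest and Star were highest. Without it, the sperm values lay on both sides of the testes values. The 2 Peg10 records have the same length, 6666 bases, and received equal counts in every sample, so that their division says nothing of the isoforms.

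Dlk1 and Igf2 were listed in more cadmium sperm than control sperm samples, each from a few counts. Igf2 (chr7:142650768-142666816), the fetal growth factor, was at 0.57 and 0.53 FPKM in cadmium sperm, 2 counts in each, and was listed at 0 in the other 8 samples. Cadmium testes held 0 counts of 5554985, and at a floor of 3 counts over that group the 4 counts of 2409968 in cadmium sperm gave a ratio of 3.07. This ratio takes the 4 sperm counts as exact, so it is not a lower limit of the difference. The 0 of each control sperm sample likewise allowed up to 3 counts, at depths of 366455 to 1058017. For Igf2 this covers the 2 counts found in each of the deeper cadmium sperm samples. Dlk1 (chr12:109452485-109463336), a transmembrane ligand related to Notch ligands that is found on fetal Leydig cells and preadipocytes, was at 0.21 and 0.99 FPKM in cadmium sperm, from 1 and 5 counts. It was listed at 0 in all 4 control sperm and in control testes 1, and stood at 0.09 FPKM in the other 3 testes samples. Neither gene reached 1 FPKM in any sample, so neither passed the filter. Without a filter, edgeR called neither between cadmium and control sperm (adjusted p = 0.826 for both) nor between cadmium sperm and cadmium testes (adjusted p = 0.282 for Dlk1 and 0.174 for Igf2). In the same 2 cadmium sperm samples, 2 of 6 epididymal epithelium markers, Crisp1 and Cdh1, were above 0 and the list summed to 2.70 and 2.85 FPKM, whereas all 6 were at 0 in every control sperm sample. Lcn5, Lcn8, Gpx5 and Rnase10 were at 0 in all sperm samples. In testes the list summed to between 0 and 7.23 FPKM. Of 6 leukocyte markers, 4 and 2 were above 0 in cadmium sperm and 0 to 2 in control sperm. The marker Cd68 was at 2.14 and 0.66 FPKM in cadmium sperm and at 0 in all control sperm. Cd4 was at 1.69 and 1.04 FPKM against 0 to 0.62 FPKM. Cd163 went the other way, at 2.15 FPKM in control sperm 1 and 0 in both cadmium sperm. Csf1r was at 0.24 FPKM in control sperm 2 and 0.45 FPKM in cadmium sperm 1. Among sperm, Ptprc was above 0 in cadmium sperm 1 alone, at 0.17 FPKM, and Mrc1 in none. As CPM of NM_ counts this list summed to 94.4, 30.0, 0 and 0 in control sperm 1 to 4 and to 76.4 and 38.0 in cadmium sperm. The part of these cells, and of the greater depth of the cadmium sperm samples, in the Igf2 and Dlk1 counts was not tested.

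Plagl1 and Peg3, which encode zinc finger transcription factors, were listed in all 4 testes samples and in at most 1 of the 6 sperm samples. Plagl1 (chr10:13090832-13131694) was at 0.47 and 0.51 FPKM in control testes and 0.81 and 0.35 FPKM in cadmium testes. Among sperm Plagl1 was above 0 only in cadmium sperm 2, at 0.61 FPKM, which lay within the range of the testes samples. Its 4 counts over the 6 sperm samples compared with 13.3 at the testes share, a ratio of 0.300 with an exact 95% Poisson interval from 0.082 to 0.768. Peg3 (chr7:6703892-6730462) was at 0.05 and 0.22 FPKM in control testes and 0.16 and 0.17 FPKM in cadmium testes, and was listed at 0 in all 6 sperm samples. At the testes share, sperm would have given 4.70 Peg3 counts, and 0 were found, which allows a ratio of up to 0.784 by the same interval. The testes shares, taken as exact, rested on 31 counts for Plagl1 and 10.7 for Peg3. By library size alone, the median log2 change of all features from testes to sperm was −1.11 in control and −0.55 in cadmium mice. Whether Plagl1 and Peg3 were lower in sperm than a typical feature was not tested.

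Igf2r and Grb10, the other maternally expressed genes, were low in every sample. Igf2r (chr17:12682406-12769706), the receptor that takes up IGF2 for degradation, was at 0.32 FPKM in control sperm 2 and 0 in the other control sperm, and at 0.58 and 0.09 FPKM in cadmium sperm. In testes it ran from 0 to 0.08 FPKM. Its 10 counts over the 6 sperm samples, 6 of them from cadmium sperm 1, stood beside 2.11 at the testes share, a ratio of 4.74. With the testes share taken as exact, the 95% Poisson interval of this ratio ran from 2.27 to 8.72. That share rested on only 5 testes counts, so the full counting error is wider. Grb10 (chr11:11930499-12037428), an adaptor that dampens insulin and IGF receptor signalling, was at 0.18 FPKM in cadmium sperm 1, from 1 count, and was listed at 0 in the other 5 sperm samples, against 0.07, 0.16, 0 and 0.08 FPKM in testes.

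**Figure D4:**
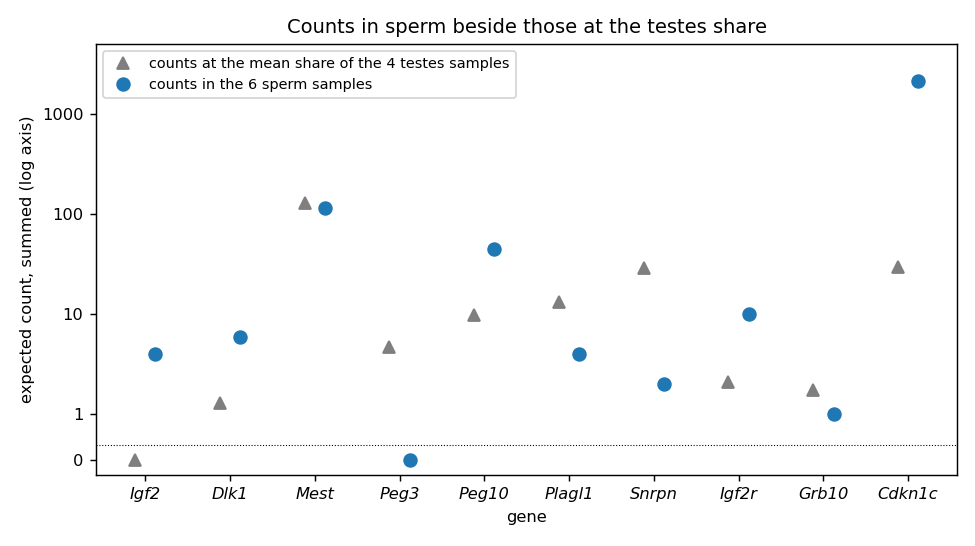
Expected counts of each gene summed over the 6 sperm samples (circles, log axis) beside the counts that the same depth would give at the mean share of the 4 testes samples (triangles), with 0 below the dotted line. Cdkn1c is at 2122 against 29.6, Snrpn at 2 against 29.1, and Mest at 115 against 128.

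The order of the levels differed between the tissues. In testes Mest led with a mean of 11.5 ± 2.47 FPKM (SD, n = 4), followed by Cdkn1c at 3.29 ± 1.12 FPKM and Snrpn at 2.99 ± 0.73 FPKM, which did not differ beyond their spread, and the other 7 genes were all below 0.54 FPKM on average. In sperm 2 to 4 of the controls and both cadmium samples, Cdkn1c led with 220 ± 114 FPKM (SD, n = 5). Mest followed at 14.5 ± 19.7 FPKM and Peg10 at 3.07 ± 6.10 FPKM, each with a spread wider than its mean. The other 7 genes averaged from 0 to 0.24 FPKM and did not differ beyond their spread. A lower share in such bulk samples can come from fewer cells of a type or from less RNA per cell, and these cannot be told apart.

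Sperm and testes of control mice were then compared by edgeR's quasi-likelihood test over all features that reached 1 FPKM in 2 or more samples. A feature was called where its p, adjusted by Benjamini-Hochberg, was under 0.05 and it differed more than 2-fold. Of the 10 genes 3 passed this filter, Cdkn1c, Mest and Snrpn, and 1 was called, where 22% of 24432 features were called (4.19% higher in sperm and 17.8% lower). Cdkn1c was 48.2-fold higher in control sperm than in control testes (log2 value 5.59 ± 0.82, edgeR adjusted p = 1.9e-07), where the error is the change over the root of the F statistic. The median log2 change over all features was −1.24, so that Cdkn1c stood 6.83 above it. Mest did not differ beyond its error, with a log2 fold change of 0.08 ± 1.06 (edgeR adjusted p = 0.967), and the value was −1.95 without control sperm 3. Snrpn gave −3.37 ± 1.69 (edgeR adjusted p = 0.143), which was not called. By library size alone the median of all features was −1.11, and 1065 features were called higher and 1669 lower instead of 1024 and 4345.

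The same contrast in cadmium mice shares no sample with that in the controls. Of 3 genes tested 2 were called, where 31.7% of 25780 features were called (16.3% higher in sperm and 15.4% lower). Cdkn1c was 101-fold higher in cadmium sperm than in cadmium testes, a log2 fold change of 6.66 ± 0.73 (edgeR adjusted p = 2.4e-17). Snrpn fell by 3.71 ± 1.30 on the log2 scale (edgeR adjusted p = 0.0178), on 1 count in sperm against 39 in testes. The Snrpn call was lost without cadmium sperm 1 (−2.70, adjusted p = 0.131), with DESeq2 (−3.90, adjusted p = 0.112) and in 1 model over all groups (−3.83, adjusted p = 0.106). Mest gave 0.08 ± 0.56 (edgeR adjusted p = 0.933). In an additive model of tissue and agent over the 9 samples, added after the data were seen, 2 of 3 genes were called, where 32.7% of 32814 features were called. There Cdkn1c gave 6.20 ± 0.53 (edgeR adjusted p = 1.5e-28) and Snrpn fell by 3.46 ± 1.12 on the log2 scale (edgeR adjusted p = 0.0096).

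Cadmium was compared with control within each tissue, which is the question of the series' treatment arm, and none of the 10 genes was called in either. These comparisons share the control samples with the contrast of sperm and testes above. In testes 0 of 3 tested genes were called, where 0.0225% of 26724 features were called, and no member had an unadjusted edgeR, DESeq2 or limma p under 0.05 (0 of 3 by each). The log2 fold changes were −0.20 ± 0.62 for Cdkn1c, 0.08 ± 0.52 for Mest and 0.53 ± 0.63 for Snrpn, all with an edgeR adjusted p of 1.00. For scale, the Snrpn values of 2.23 and 2.83 FPKM in control testes lay just below the 2.93 and 3.99 FPKM of cadmium testes.

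In sperm 0 of 2 tested genes were called, where 0.0824% of 20640 features were called, and again no member, summed by gene over these samples, had an unadjusted p under 0.05 by edgeR, DESeq2 or limma (0 of 2 by each). Such a p was given by the transcript NM_001161624 of Cdkn1c tested alone (log2 value 2.05, edgeR adjusted p = 0.349) and by Mest without control sperm 3 (log2 value 1.80, edgeR adjusted p = 0.998), neither of which was called. Cdkn1c gave a log2 fold change of 0.41 ± 0.48 and Mest −0.40 ± 0.99 (edgeR adjusted p = 1.00 for both). The median over all features was 0.43, so that Cdkn1c lay 0.02 below it. The sign of both genes turned on single libraries. Cdkn1c was −0.43 without cadmium sperm 1 and 0.91 without cadmium sperm 2, and Mest was 1.80 without control sperm 3 and −2.55 without cadmium sperm 2. With 2 cadmium samples whose Cdkn1c levels were 390 and 134 FPKM around control values of 98.4 to 255 FPKM, a change of the size of this spread was not detectable.

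The cadmium effect in sperm was set against that in testes by an interaction term over the 9 samples. Of 3 tested genes 0 were called, where 0.0396% of 32814 features were called, and 0 of 3 had an unadjusted p under 0.05 by edgeR, by DESeq2 or by limma. The differences of the log2 effects (sperm minus testes) were 0.55 ± 0.92 for Cdkn1c, −0.53 ± 1.24 for Mest and −0.78 ± 2.64 for Snrpn, all with an edgeR adjusted p of 1.00.

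**Figure D5:**
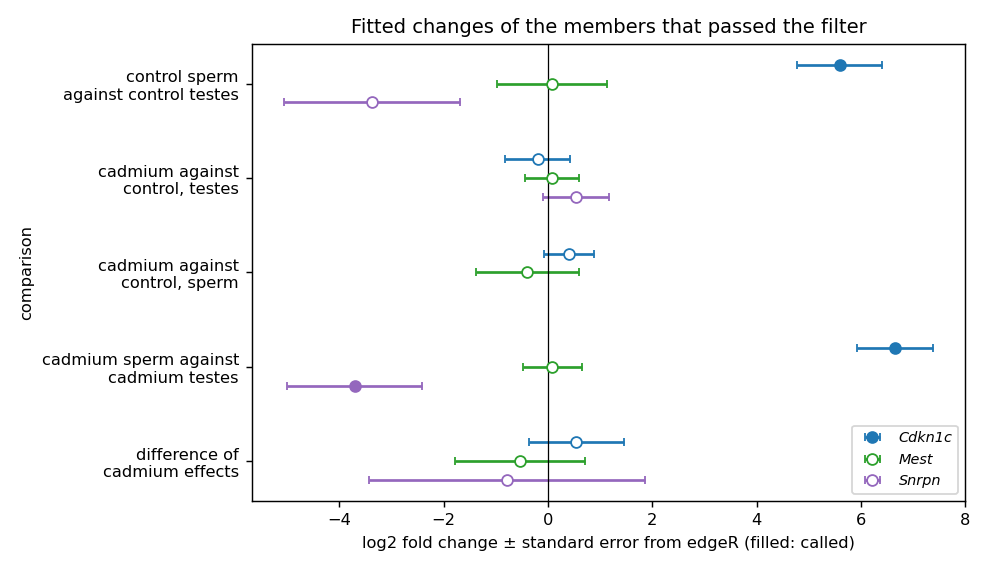
Log2 fold changes with standard errors from edgeR for the genes that passed the filter in each of the 5 comparisons, with filled points where a gene was called. Cdkn1c lies at 5.59 and 6.66 in the contrasts of sperm and testes, and the genes tested lie within about 1 standard error of 0 in those of cadmium and control, where Snrpn did not pass the filter in sperm.

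Other imprinted protein-coding genes were looked at as a list of 53 symbols, 35 of which had NM_ transcripts in the tables. In control mice 1 of 13 tested was called, lower in sperm, beside the 22% of all features, and the list's median log2 change was 0.15 against −1.24 over all features. The one called was Zrsr1, a paternally expressed retrogene of a splicing factor, at 0.63, 0 and 0 FPKM in control sperm 2 to 4 and at 22.2 and 26.3 FPKM in control testes (−6.37 ± 1.13, edgeR adjusted p = 1.7e-05). In cadmium mice 4 of 14 tested were called higher in sperm and 3 lower, beside the 16.3% and 15.4% of all features, and the list's median was −0.07 against −0.29. By DESeq2 and by limma 5 of the 14 were called. Among them Zrsr1 was lower again (−4.46 ± 0.67, edgeR adjusted p = 1.3e-09), at 1.54 and 0.53 FPKM in cadmium sperm and 25.2 and 27.1 FPKM in cadmium testes. Copg2, a neighbour of Mest that encodes a coat protein of transport vesicles, was at 1.67 and 3.46 FPKM in cadmium testes and listed at 0 in both cadmium sperm. Usp29, a ubiquitin protease gene beside Peg3, was lower in sperm as well (−3.58 ± 0.83, edgeR adjusted p = 0.00015). Tssc4 was higher in cadmium sperm (2.34 ± 0.71, edgeR adjusted p = 0.0051), at 15.0 and 10.8 FPKM against 2.13 and 3.64 FPKM in cadmium testes. In testes 0 of 14 and in sperm 0 of 12 were called between cadmium and control, and 0 of 16 in the interaction, and none of these had an unadjusted p under 0.05 by edgeR, DESeq2 or limma.

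The factors that read and maintain imprints were mostly below the filter. All 17 had NM_ transcripts in the tables, and 2 to 5 passed the filter per comparison. In none of the 5 comparisons was one called, or below an unadjusted p of 0.05, by edgeR, DESeq2 or limma, and with so few tested these counts are not apart from the 22% and 31.7% of all features called between the tissues. In the additive model 1 of 5 was called, beside 32.7% of all features, the de novo methyltransferase gene Dnmt3a, higher in sperm (2.99 ± 0.91, edgeR adjusted p = 0.0057) at 0 to 1.46 FPKM in the 6 sperm samples against 0.08 to 0.11 FPKM in testes. Of the insulin-like growth factor list, 14 of 18 genes were in the tables and 2 to 4 were tested. In control mice Igfals, a carrier of circulating IGF, was called lower in sperm, where it was listed at 0 in all 4 samples, against 2.19 and 1.11 FPKM in testes, a call that DESeq2 did not make. In cadmium mice Igfals was at 1.25 and 0.77 FPKM in sperm and 1.02 and 0.89 FPKM in testes and was not called. There the docking protein gene Irs2 was higher in sperm (4.33 ± 1.30, edgeR adjusted p = 0.0047) at 1.08 and 1.00 FPKM against 0 and 0.09 FPKM, and the RNA-binding protein gene Igf2bp3 was lower (−1.47 ± 0.60, edgeR adjusted p = 0.0459) at 2.19 and 2.94 FPKM against 6.92 and 9.66 FPKM. By DESeq2 and by limma 0 of the 3 genes of this list tested were called there, with 2 below an unadjusted p of 0.05 by each. No gene of the list was called by edgeR, DESeq2 or limma between cadmium and control or in the interaction, where limma alone gave 1 of 4 an unadjusted p under 0.05.

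The genes most like the members in pattern were sought among 2522 NM_ genes listed in at least 8 samples with a mean of at least 1 FPKM, by Pearson's r of log2(FPKM + 1) over the 10 samples, which share libraries and depth. For Cdkn1c these were Ggn (r = 0.998), Ptp4a3 (r = 0.996) and Tsc1 (r = 0.996). Ggn, which encodes a germ cell protein, was at 21.9 to 65.8 FPKM in sperm and 2.12 to 3.80 FPKM in testes. Among sperm it was lowest in control sperm 3 and highest in cadmium sperm 1, as was Cdkn1c. The choice of Ggn by its r over these same samples favours such a shared order. For Mest they were Esyt2 (r = 0.983), Ptbp2 (r = 0.942) and Cacna1d (r = 0.923), and for Peg10 Wnk4 (r = 0.987), Krba1 (r = 0.984) and Inpp5d (r = 0.979). Each of these 6 genes was at its highest in control sperm 3, such as Krba1 at 28.1 FPKM there and at 0 to 0.65 FPKM in the other 9 samples. The part of that library in the likeness was not tested.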

How the data were processed

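RNA depleted of ribosomal RNA was sequenced from both ends with strand kept. The authors aligned the reads (SOAPaligner/SOAP2 in the study's methods; HISAT and mm10 in the submitters' processing notes) and deposited 1 table per sample with expected counts, estimates that were not normalized and of which 29.3% to 40.3% were not whole, and FPKM, scaled by the authors to length and library. The counting tool is not given in the sources used here. A transcript not listed was taken as 0. Values were summed by gene, counts were rounded, and edgeR 4.0.16 (R 4.3.3, TMM, quasi-likelihood) was fitted over all features of at least 1 FPKM in 2 samples, with Benjamini-Hochberg adjustment; limma 3.58.1 on log2(FPKM + 1) and DESeq2 1.42.0 were alternatives. Control sperm 1 was left out. The test was checked on simulated counts. Replicates of a group differed beyond sampling noise in all 9 pairs (chi-square per degree of freedom of at least 9.63). Positions and promoter windows come from RefSeq's GRCm38.p6, in which 95.3% of the symbols matched. All 10 members are named in every comparison; other list genes only if called, at most the 4 largest changes, and for likeness the 3 highest r. The members and lists were chosen with earlier results of these data known. Figures were drawn with matplotlib 3.10.9.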

Additional observations from a re-analysis of the deposited data

Results flagged for a closer look

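Only the 4 control sperm samples form a group large enough to test for a sample far from the others, by the gap to the nearest sample as a share of the group's range (critical value 0.829). For 4 normally distributed values, chance passes that value in about 1 in 20 groups. FPKM was used as listed, not on a log scale, and need not be normal, so this rate may not hold here. Of 5 genes with a value above 0 in this group, 4 were flagged. Control sperm 3 was far above the rest for Mest, at 47.7 FPKM (41 counts) with the next sample at 5.01 FPKM, and for Peg10, at 14.0 FPKM (34 counts) with the next at 0.28 FPKM. It was the shallowest of the 10 samples, with 366455 expected counts, and Star stood at 27.5 FPKM there against 0 to 3.79 FPKM in the other control sperm. Control sperm 2 was apart for Igf2r, at 0.32 FPKM (3 counts), and for Snrpn, at 0.46 FPKM (1 count), since the other 3 samples were at 0. With 3 values at 0 the share is 1 whatever the value of the remaining sample, so these last 2 cases hold no more than that a few counts were found. Control sperm 2 was the deepest of the 4, with 1058017 expected counts. The part of depth and of other cells in these values was not tested.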

How the results depend on the processing

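Of the 10 genes, the number called was 1 for control sperm against control testes and rose to 2 (with Snrpn) by limma on log2(FPKM + 1) and in the additive model over both agents. For cadmium sperm against cadmium testes it was 2 and fell to 1 (Cdkn1c) by DESeq2, by limma on log2(FPKM + 0.1) and in 1 model over all groups, and ranged from 1 to 2 with replicates left out in turn. It stayed at 0 between cadmium and control in testes, in sperm and in the interaction under every setting run. Cdkn1c was called in both contrasts of tissue in all settings run, single transcripts included, with log2 fold changes from 3.79 to 6.34 in control and from 5.88 to 7.22 in cadmium mice. Where only 1 sample of a group remained, it was assumed to vary like the others.

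Mest had no stable sign. For control sperm against control testes it was −0.66 and −0.97 by limma with a pseudocount of 1 and 0.1, −0.40 with NM_ genes alone, −0.00070 for its transcript, and −1.95 to 0.54 with replicates left out. Between cadmium and control in sperm it was 0.077 and 0.26 by limma and −2.55 to 1.80 with replicates left out, and in testes −0.38 to 0.73. For cadmium sperm against cadmium testes it was −0.21 by library size alone, −0.15 without a filter, −0.64 and −0.78 by limma, −0.0040 with NM_ genes alone, −0.072 in 1 model, and −2.03 to 0.95 with replicates left out. In the interaction it was 0.023 without a filter, 0.017 and 0.19 by limma, 0.36 with NM_ genes alone, and −2.14 to 1.78 with replicates left out. Cdkn1c turned sign between cadmium and control in sperm for NM_009876 (−0.47, with NM_001161624 at 2.05, edgeR adjusted p = 0.349) and with replicates left out (−0.43 to 0.91), in testes for NM_001161624 (0.15) and with replicates left out (−0.80 to 0.17), and in the interaction with replicates left out (−0.17 to 1.46). Snrpn in the interaction ranged from −3.40 to 2.43. Causes were not tested.

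Replicate numbers are shared between groups, but the labels do not say that they mark the same mice, and the correlation of deviations of same-numbered samples ran from −0.073 to 0.56. In groups of 2 samples the deviations mirror each other, so that replicates 1 and 2 give the same value there. With the number as a replicate block, 0 members were called for cadmium in testes and in the interaction and 2 in cadmium sperm against testes. Under the block Mest was −0.33 for cadmium sperm against cadmium testes, and in the interaction Mest was 1.38 and Cdkn1c −0.56. The block could not be fitted with control sperm 2 to 4 for the other 2 comparisons. With all 4 pools, a setting added after the data were seen, the block gave 1 member called for control sperm against testes and 0 for cadmium in sperm, with Mest at −1.19 and 0.76, and at 0.81 in the interaction.

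Counts over all features moved more: 5369 called for control sperm against testes ranged from 880 to 6937, 6 for cadmium in testes from 0 to 88, 17 for cadmium in sperm from 0 to 51, 8168 for cadmium sperm against testes from 1619 to 8168, and 13 in the interaction from 0 to 115. With RLE size factors 4 features were higher and 5 lower for cadmium in sperm, instead of 10 and 7, and 1 and 2 in the interaction, instead of 3 and 10. Of the 10 genes, 7 did not pass the filter in any comparison, and every cadmium group held 2 samples.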
